A study of Mus musculus with 12 samples.

Results

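The genes described here are members of the Notch and Wnt signalling pathways whose transcripts carried N6-methyladenosine (m6A) peaks in mouse liver. A gene was a member when its KEGG annotation in the authors' deposited table held the term for Notch or the term for Wnt signalling. Genes that also held the cell cycle or the ErbB signalling term were left out, as were Trp53 and genes whose symbol begins with Hdac, Kat or Chd. This left 96 of the 10277 genes in the table, with 176 of its 17503 peaks. Of these, 23 genes belonged to Notch and 77 to Wnt, and the 4 genes in both, among them Ctbp1, Dvl1 and Dvl3, are counted in each.

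The study set the livers of Mettl3-deficient C57BL/6 mice against those of wild type C57BL/6 mice. Messenger RNA was fragmented, precipitated with an anti-m6A antibody and sequenced (IP) beside input mRNA, with 3 replicates in each of 4 groups, Mettl3-deficient IP, Mettl3-deficient input, WT IP and WT input. The labels call the mice Mettl3-deficient and give neither the allele, the cell type in which it acts, nor the age beyond the postnatal liver of the title. METTL3 is the catalytic subunit of the complex that writes m6A on mRNA.

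Notch and Wnt are short-range signalling pathways. A Notch receptor is cut after a neighbouring cell presents a ligand, first by a metalloprotease and then by gamma-secretase, and the freed intracellular domain joins RBPJ and MAML coactivators on target genes such as Hes1. In canonical Wnt signalling, ligand binding to a Frizzled receptor and an LRP coreceptor acts through Dishevelled to stop a destruction complex of AXIN, APC and kinases from marking beta-catenin for breakdown, while other arms act on cell polarity and calcium. In liver, Notch is known for its part in bile duct formation, and Wnt for the zonation of hepatocytes around the central vein. In mature mRNA, m6A lies mostly near stop codons and in 3′ untranslated regions (UTRs), where reader proteins bind it.

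Each peak's value comes from the comparison of the genotypes made by the authors, with a log2 fold change and its false discovery rate (FDR), written as log10. A peak was called when its FDR was 0.05 or below. The numerator of the fold change is not named in the header, so that changes are given here as negative or positive. From the design, a negative value likely stands for less m6A enrichment in Mettl3-deficient than in wild type liver. No values per library were used, so read depth and the spread between mice are unknown, and calls cannot be set against that spread. For the same reason no test was run over the members, and counts and medians describe this table. For each gene the leading peak is the one with the smallest FDR.

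The libraries are of whole liver, in which a changed mix of cell types and a change within a cell type cannot be told apart. The values compare m6A peaks and not RNA levels, so the signs of marker peaks do not give cell numbers. Of 9 hepatocyte markers, 8 had a listed peak, as did 5 of 7 endothelial, 6 of 7 stellate, 4 of 7 macrophage and 2 of 5 cholangiocyte markers. The cholangiocyte markers Krt19, Krt7 and Epcam had no peak to analyse here. By leading peak the hepatocyte markers were negative and called in 5 and positive and called in 3, while the endothelial markers were positive and called in 5 of 5 and the stellate markers in 5 of 6. Both listed cholangiocyte markers, Sox9 and Spp1, were negative and called, and of the macrophage markers 2 were negative and called, 1 positive and called and 1 not called. Over all genes 47.6% were negative and called and 33.6% positive and called. The part of cell composition in the values below was not tested.

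Most members of both pathways lay on the negative side. By leading peak, 18 of 23 Notch genes (78.3%) were negative and called, 3 were positive and called and 2 were not called. Among Wnt genes 44 of 77 (57.1%) were negative and called, 19 (24.7%) were positive and called and 14 were not called. Of all genes in the table, 81.1% were called, 47.6% negative and 33.6% positive. The median leading log2 fold change was -1.13 for Notch (quartiles -1.47 and -0.70), -0.83 for Wnt (-1.45 and 0.91) and -0.52 over all genes (-1.43 and 0.78). Genes of the table that carry any KEGG annotation had a median of 0.34, and 44.3% of these 3696 genes were negative and called.

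The pathways differed more by gene than by peak. Over all listed peaks, 51.9% of 52 Notch peaks and 51.1% of 131 Wnt peaks were negative and called, and 13 Notch and 36 Wnt peaks were positive and called. Of all listed peaks 76.2% were called, 40.6% negative and 35.6% positive. The median over peaks was -0.54 for Notch and -0.68 for Wnt, so the order of the medians by gene (Notch minus Wnt -0.30) was turned by peak (0.15). Leaving out the 4 shared genes, the medians by gene were -1.22 for 19 Notch genes and -0.87 for 73 Wnt genes. Whether the pathways differ beyond the variation between mice was not tested.

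**Figure D1:**
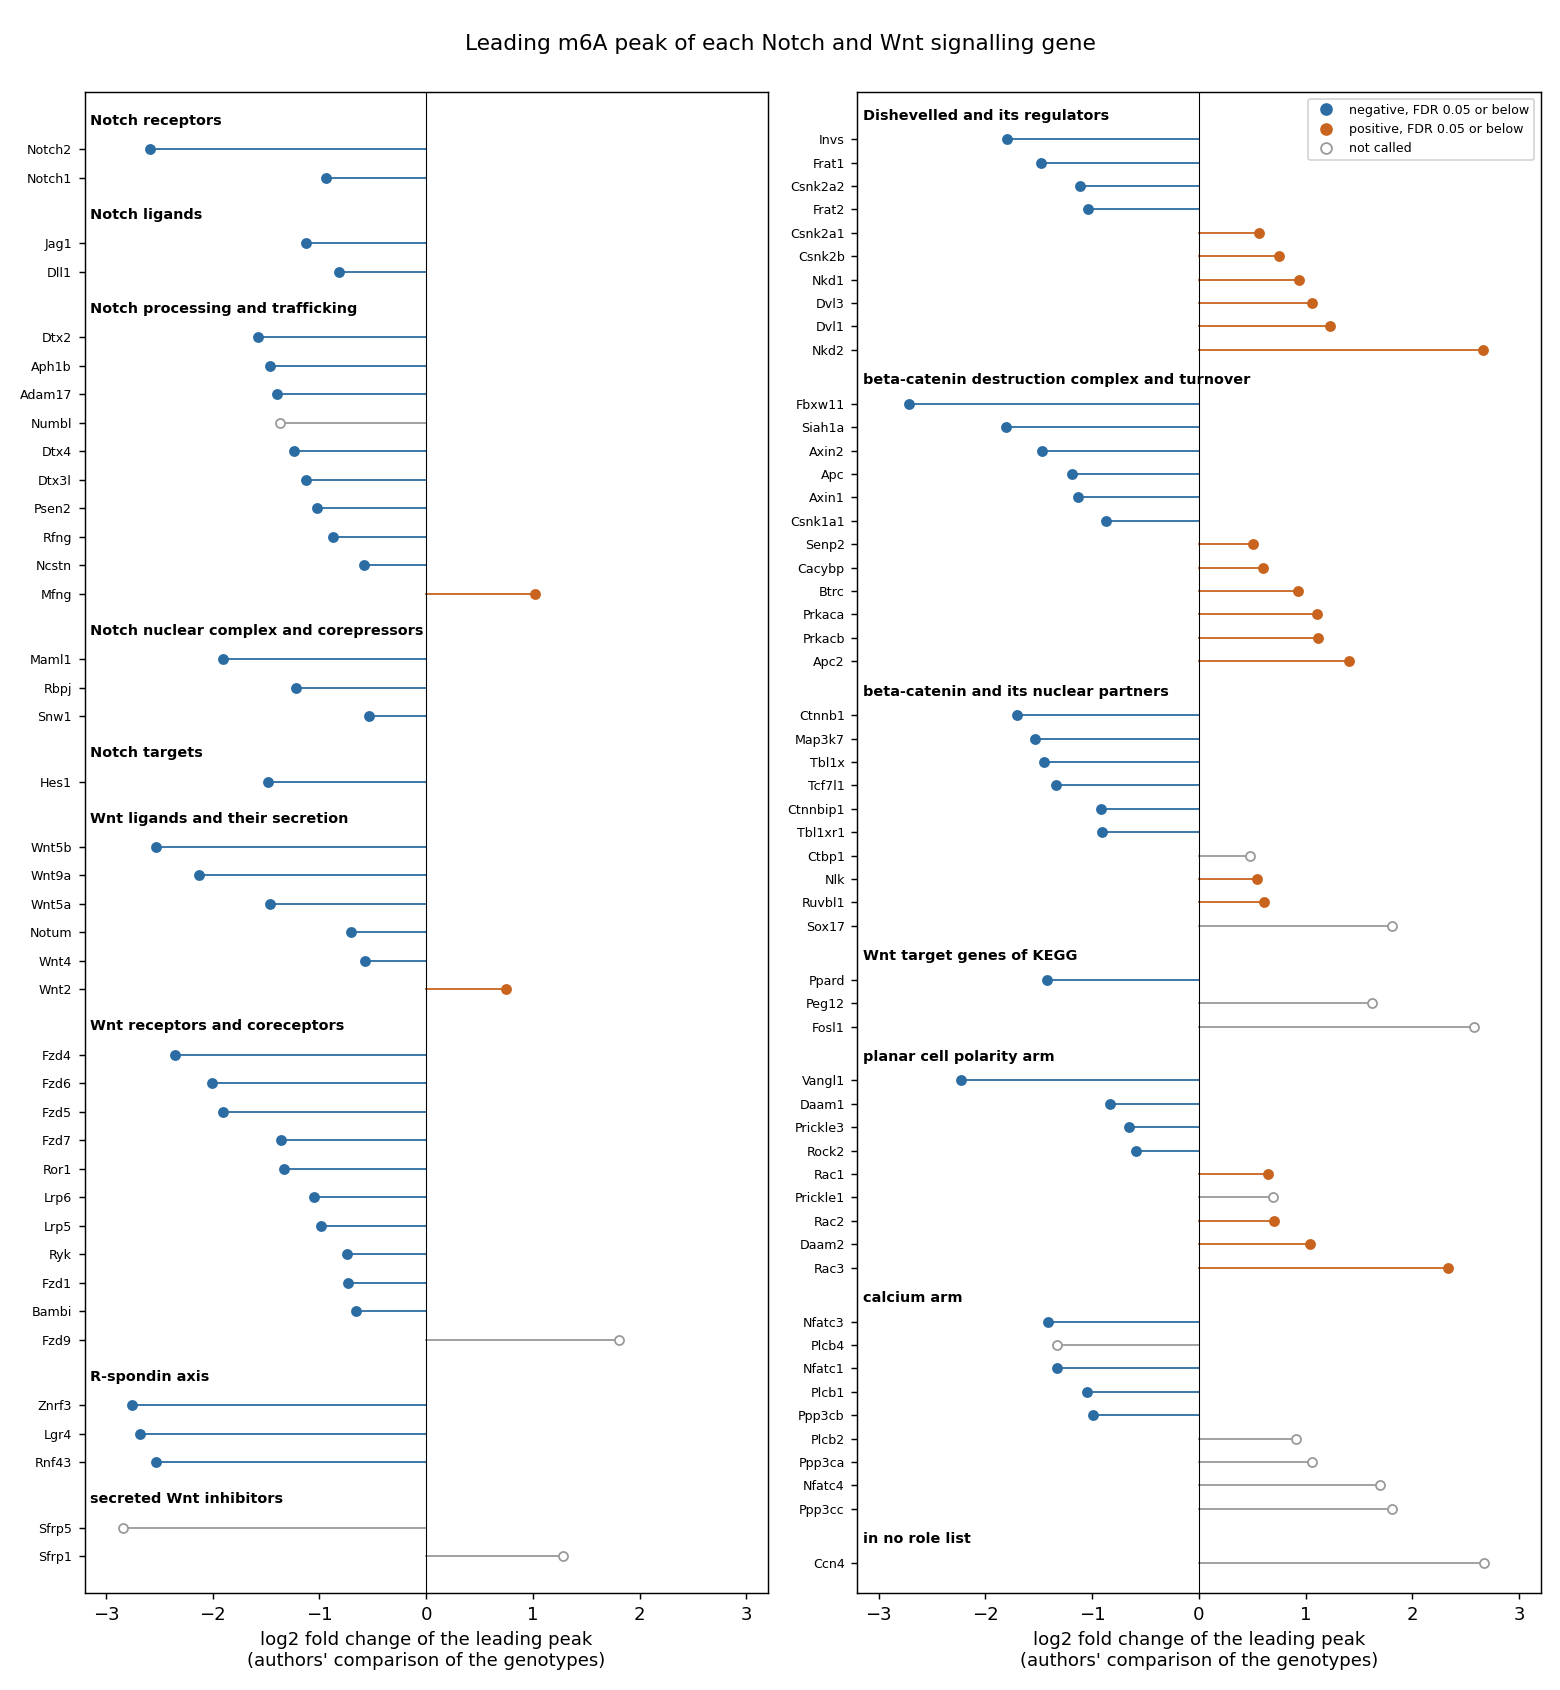
Log2 fold change of the leading peak (horizontal axis) of 94 of the 96 genes, grouped by role, with filled blue points for negative and filled orange points for positive called peaks and open grey points for peaks not called. Dvl1 and Dvl3 are drawn once, under Dishevelled. The Notch groups lie left of 0 apart from Mfng at 1.02, and the R-spondin axis lies between -2.76 and -2.53.

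Both Notch receptors in the table were negative, Notch2 far more so than Notch1. Notch2, the main Notch receptor of liver development, had its leading peak in the 3′ UTR on chromosome 3 (98147456 to 98148894, mm10), where the authors' deposited table gives -2.59, a ratio of 0.166, at the floor of the FDR scale. A peak in the exon before it stood at -2.11 and a second 3′ UTR peak at -1.47 in the authors' deposited table. In Notch1 all 5 listed peaks were negative, between -0.94 and -0.35 in the authors' deposited table, and 4 were called, but the 3 in the 3′ UTR overlap one another. The leading peak of Notch1, in an exon on chromosome 2 (26460300 to 26462220), was given as -0.94 (log10 FDR -11.7) by the authors' deposited table. Notch3 and Notch4 were not analysed here.

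The ligand genes were negative too. For Jag1, whose protein is the ligand of bile duct formation, the authors' deposited table gives -1.13 (log10 FDR -4.13) in the 3′ UTR, and for Dll1 -0.82 in an exon of a transcript annotated as a retained intron. A short peak at the far end of the 3′ UTR of Jag1 was not called, at 1.02 in the authors' deposited table.

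Among genes that cut, modify or remove the receptor, 9 of 11 were negative and called (81.8%, against 47.6% over all genes). Those of gamma-secretase carried both signs. Psen2, which encodes a catalytic subunit, had its leading peak in the 3′ UTR at the floor of the FDR scale, at -1.02 (ratio 0.493) in the authors' deposited table. It also held a called positive peak in the 5′ UTR, which the authors' deposited table gives as 1.03. Ncstn, which encodes nicastrin, the subunit that admits substrates, showed the same split with -0.58 in the 3′ UTR against 1.04 and 0.79 in overlapping 5′ UTR peaks (authors' deposited table). Aph1b, a scaffold subunit, had a single 3′ UTR peak at -1.46 in the authors' deposited table. Adam17, which encodes a metalloprotease that can shed the receptor ectodomain, had 2 called 3′ UTR peaks, which the authors' deposited table gives as -1.40 and -0.66.

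Ubiquitin ligases and sugar transferases that tune the receptor followed, with 1 exception. For the Deltex family the authors' deposited table gives -1.58 for Dtx2, -1.24 for Dtx4 and -1.13 for Dtx3l, each in an exon. The Fringe glycosyltransferases, which set ligand preference, had opposite signs in the authors' deposited table, with Rfng at -0.87 and Mfng at 1.02, both in the 3′ UTR. A 5′ UTR peak of Mfng at 2.40 and the only peak of Numbl, an endocytic adaptor of the Numb family, at -1.37 were not called in the authors' deposited table.

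The 4 members of the nuclear complex and its corepressors were negative and called, as were 47.6% of all genes. Maml1, the coactivator, had 3 called peaks in the authors' deposited table, -1.90 and -2.06 in the 3′ UTR and -1.84 in an exon, and its 5′ UTR peak at -0.34 was not called. For Rbpj, the DNA-binding factor of the pathway, the authors' deposited table gives -1.22 in the 3′ UTR (log10 FDR -11.1) but 2.62 (log10 FDR -1.50) in a called 5′ UTR peak of 91 bp. Snw1, a splicing factor that also joins the Notch complex, had its leading peak at -0.54 and called positive peaks at 0.38 and 0.61 in exons and at 0.77 beyond the span of the gene in RefSeq (authors' deposited table). Hes1, the target repressor gene, had -1.48 in the 3′ UTR (chromosome 16, 30067167 to 30067796, log10 FDR -38.6) in the authors' deposited table, and 0.41 in a 5′ UTR peak that was not called.

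**Figure D2:**
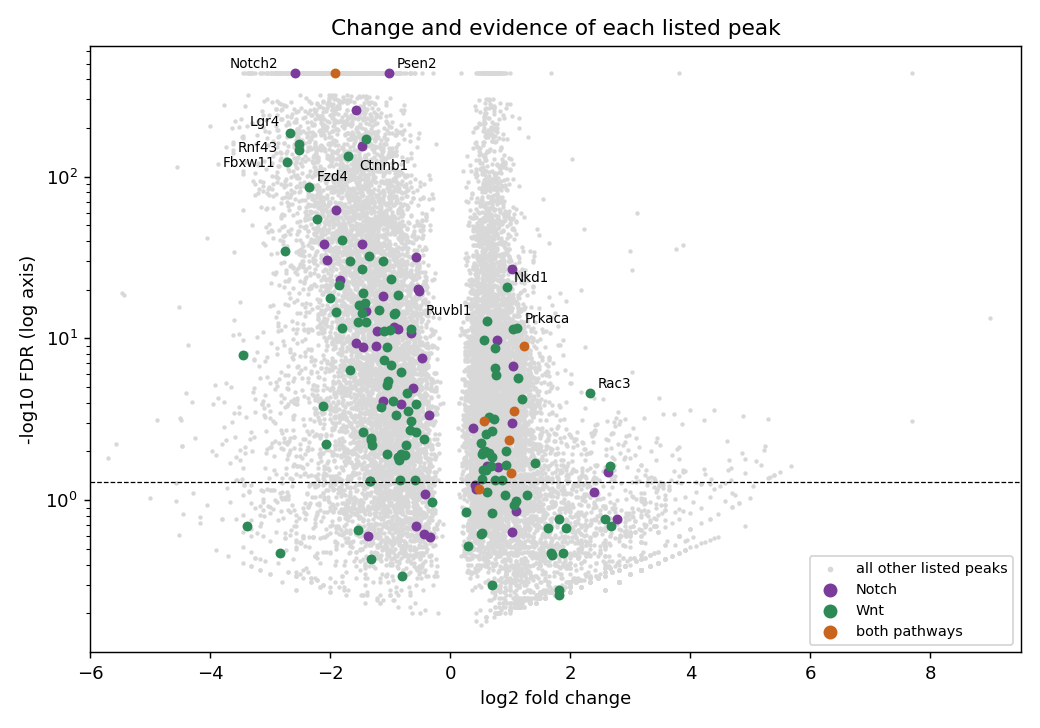
Log2 fold change (horizontal axis) against -log10 FDR on a log axis for every peak, with Notch in purple, Wnt in green, genes of both pathways in orange and peaks of all other genes in grey. The dashed line is the FDR of 0.05, and the row at the top is the floor of the FDR scale, where Notch2 and Psen2 lie at -2.59 and -1.02.

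On the Wnt side, the genes that act at the cell surface were mostly negative, a grouping made after the values were seen. The group held 20 genes, for ligands, the ligand-modifying Notum, receptors and the R-spondin axis. Of these 18 were negative and called (90.0%), Wnt2 was positive and called, and Fzd9 was not called. The secreted inhibitor genes Sfrp1 and Sfrp5, not called, and the membrane protein gene Vangl1, negative and called, were left out of this group. Of the other 57 Wnt members 26 were negative and called (45.6%), 18 positive and called and 13 not called. The background over all genes was 47.6% negative. Medians were -1.35 at the surface and 0.48 among the others, and over leading 3′ UTR peaks alone -1.35 (16 genes) and -0.75 (46 genes). Among leading peaks of at most 1000 bp, those of 5 of 6 surface genes and 12 of 33 others were negative and called. The difference was not tested, since genes are not replicates.

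The R-spondin axis had the lowest group median of the Wnt lists, -2.68 over 3 genes. LGR4 is a receptor for R-spondins, which raise Wnt sensitivity by taking the ligases ZNRF3 and RNF43 away from Frizzled. Lgr4 had a 3′ UTR peak on chromosome 2 (110011689 to 110012824) at -2.68, a ratio of 0.156 (log10 FDR -185), in the authors' deposited table. Znrf3 stood at -2.76 in an exon on chromosome 11 (5281047 to 5281974, log10 FDR -34.7) in the authors' deposited table. For Rnf43 the authors' deposited table gives -2.53 (log10 FDR -158) in an exon on chromosome 11 (87731185 to 87734192) and -1.86 in a 5′ UTR peak, both called. The receptor gene and both ligase genes thus had leading values of like size, although their proteins act in opposite directions.

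Among receptors, 10 of 11 were negative and called (90.9%, against 47.6% over all genes). For the Frizzled genes the authors' deposited table gives -2.35 in Fzd4 (log10 FDR -86.7), -2.01 in Fzd6, -1.90 in Fzd5, -1.36 in Fzd7 and -0.73 in Fzd1. An exon peak of Fzd6 had the lowest called value of all members, -3.46 (ratio 0.0909, log10 FDR -7.95), in the authors' deposited table. Fzd9, with a single peak of 61 bp at 1.81, was not called in the authors' deposited table. The LRP coreceptor genes were close together in the authors' deposited table, at -1.05 for Lrp6 and -0.99 for Lrp5. Alternative receptor genes stood at -1.33 for Ror1 and -0.74 for Ryk, and Bambi, which encodes a pseudoreceptor also known from TGF-beta signalling, at -0.66 in the authors' deposited table.

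Ligand genes were negative with 1 exception. The authors' deposited table gives -2.53 for Wnt5b (log10 FDR -147), -2.13 for Wnt9a, -1.46 for Wnt5a and -0.57 for Wnt4, all in the 3′ UTR. Notum, whose protein strips the lipid from Wnt ligands, stood between -0.84 and -0.68 in 3 overlapping 5′ UTR peaks of the authors' deposited table, all called. For Wnt2, a ligand known from liver endothelial cells, the authors' deposited table gives 0.75 (log10 FDR -6.57) over a peak of 33909 bp. The endothelial markers were also positive and called in 5 of 5, between 0.25 and 1.22, and a link between these values and Wnt2 was not tested. Neither member among the secreted inhibitors was called. Sfrp1 has 1.28 and Sfrp5 -2.84 (log10 FDR -0.47) by the authors' deposited table.

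Dishevelled genes were on the positive side. DVL proteins relay the signal from Frizzled and are annotated to both pathways. In the authors' deposited table Dvl1 stood at 0.56 in the 3′ UTR and, with a log10 FDR of -8.99, at 1.23 in the 5′ UTR, and Dvl3 at 1.06 in the 3′ and 1.01 in the 5′ UTR, all 4 called. Nkd1 and Nkd2, whose proteins bind and restrain Dishevelled, were positive, with 0.94 and 2.66 given by the authors' deposited table. Frat1 and Frat2, inhibitors of the kinase GSK3, were negative at -1.48 and -1.04 in the authors' deposited table, and so was Invs, the inversin gene of the polarity switch, at -1.80. Subunit genes of casein kinase CK2 were mixed in the authors' deposited table, with 0.56 for Csnk2a1, -1.11 for Csnk2a2 and 0.75 for Csnk2b. The Dishevelled list as a whole had 4 negative (40.0%) and 6 positive (60.0%) genes, all called, and a median of 0.66. Over all genes the shares were 47.6% and 33.6%, and the median was -0.52.

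The destruction complex and the ligases that act on beta-catenin were split, with 7 negative and 6 positive genes of 13, all called. The shares were 53.8% and 46.2%, against 47.6% and 33.6% over all genes. Scaffold genes were negative in the authors' deposited table, at -1.13 for Axin1, -1.47 for Axin2 and -1.19 for Apc, while Apc2 stood at 1.41. Axin2, itself a Wnt target gene, had called negative peaks in both UTRs, -1.47 in the 3′ UTR and -1.10 in the 5′ UTR (authors' deposited table). The paralogous F-box genes that recognise phosphorylated beta-catenin had opposite signs in the authors' deposited table, with -2.72 for Fbxw11 (ratio 0.152, log10 FDR -123) and 0.93 for Btrc (log10 FDR -1.64). The leading peak of Fbxw11 lay in the 3′ UTR and that of Btrc in the 5′ UTR, over 30912 bp. The 3′ UTR peaks of Btrc, at 0.26 and 1.93 in the authors' deposited table, were not called. The ligase gene Siah1a stood at -1.81 in a 5′ UTR peak of 21004 bp in the authors' deposited table, and the gene of its partner Cacybp at 0.60. For Csnk1a1, the priming kinase, the authors' deposited table gives -0.87 in the 3′ UTR and 0.72 in the 5′ UTR, both called. Both genes for catalytic subunits of protein kinase A were positive in the authors' deposited table, at 1.11 for Prkaca and 1.12 for Prkacb. The SUMO protease gene Senp2 was positive in its 3 listed peaks, between 0.51 and 0.70 in the authors' deposited table.

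Ctnnb1, the beta-catenin gene, was negative in the 3′ UTR and positive at its start. For its 3′ UTR peak on chromosome 9 (120959403 to 120959672, 270 bp) the authors' deposited table gives -1.70, a ratio of 0.308 (log10 FDR -135), and for its 5′ UTR peak 0.59 (log10 FDR -2.55). The 5′ UTR peak is annotated to a retained-intron transcript and the 3′ UTR peak to a protein-coding one. Of 10 genes for beta-catenin and nuclear partners, 6 were negative and called (60.0%), 2 positive and called and 2 not called. The share negative and called over all genes was 47.6%. Ctnnbip1, an inhibitor that blocks beta-catenin from TCF factors, stood at -0.92, and Tcf7l1, a TCF repressor, at -1.34 in the authors' deposited table. For the cofactor genes Tbl1x and Tbl1xr1 the authors' deposited table gives -1.45 and -0.91. The kinase gene Map3k7 stood at -1.54 and Nlk, whose kinase acts below it on TCF factors, at 0.54 in the authors' deposited table. Ruvbl1, an ATPase gene, was positive at 0.61 in a peak of 17558 bp, and Ctbp1 (0.48) and Sox17 (1.81) were not called in the authors' deposited table. Among KEGG target genes Ppard was negative at -1.42, and Fosl1 (2.58) and Peg12 (1.62) were not called in the authors' deposited table. Ccn4, a Wnt-induced matrix protein gene placed in none of the role lists, stood at 2.67 and was not called there.

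In the polarity arm 4 of 9 genes were negative and called (44.4%), 4 positive and called (44.4%) and 1 not called. Over all genes 47.6% were negative and called and 33.6% positive and called. Vangl1, a core polarity membrane protein gene, was negative in all 3 peaks of the authors' deposited table, at -2.23 and -1.31 in the 3′ UTR and -0.95 in the 5′ UTR. The leading peaks of the formin genes were opposite in the authors' deposited table, with Daam1 at -0.83 and Daam2 at 1.04. Daam1 also held called positive peaks there, at 0.53 and 0.54. The Rac GTPase genes were positive by leading peak in the authors' deposited table, at 0.65 for Rac1, 0.70 for Rac2 and 2.33 for Rac3. Rac3 also held a called negative 5′ UTR peak, at -2.08 in the authors' deposited table. Prickle3 (-0.66) and the kinase gene Rock2 (-0.59) were negative, and Prickle1 (0.69) was not called in the authors' deposited table.

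In the calcium arm the leading peaks of 4 of 9 members (44.4%) were called, all negative. Over all genes 81.1% were called and 47.6% were negative and called. The authors' deposited table gives -1.41 for Nfatc3 (log10 FDR -170) and -1.33 for Nfatc1, which encode calcium-driven transcription factors, and 1.70 for Nfatc4, not called. For calcineurin subunits the authors' deposited table gives -0.99 for Ppp3cb, called, and 1.06 for Ppp3ca and 1.81 for Ppp3cc, not called. The phospholipase genes stood at -1.05 for Plcb1, called, and at 0.91 for Plcb2 and -1.33 for Plcb4, not called, in the authors' deposited table. Ppp3cb and Plcb1 each also held a called positive 3′ UTR peak, at 0.64 and 0.75 in the authors' deposited table.

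The sign of a peak differed with its place on the transcript, and the pathways differed most in the 5′ UTR. In the 3′ UTR 19 of 27 Notch peaks (70.4%) and 46 of 84 Wnt peaks (54.8%) were negative and called, and 4 and 23 were positive and called. Of all listed 3′ UTR peaks 81.0% were called, 48.9% negative and 32.1% positive. Other exons gave 8 negative and 2 positive calls among 13 Notch peaks and 11 and 3 among 18 Wnt peaks. Of all listed exon peaks 62.5% were called, 38.6% negative and 23.9% positive. In the 5′ UTR none of 12 Notch peaks was negative and called, and 7 (58.3%) were positive and called. Among 29 Wnt peaks there, 10 (34.5%) were negative and 10 positive and called. Of all 5′ UTR peaks listed 76.4% were called, 23.0% negative and 53.4% positive. Of those 7 Notch peaks, 3 belong to the genes shared with Wnt and 2 are overlapping peaks of Ncstn. Without the shared genes, 4 of 9 Notch peaks (44.4%) and 7 of 26 Wnt peaks (26.9%) in the 5′ UTR were positive and called. Those negative and called were then 0 and 10 (38.5%). Of the 10 negative Wnt peaks, 3 are a run of overlapping peaks of Notum. The difference between the pathways was not tested.

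**Figure D3:**
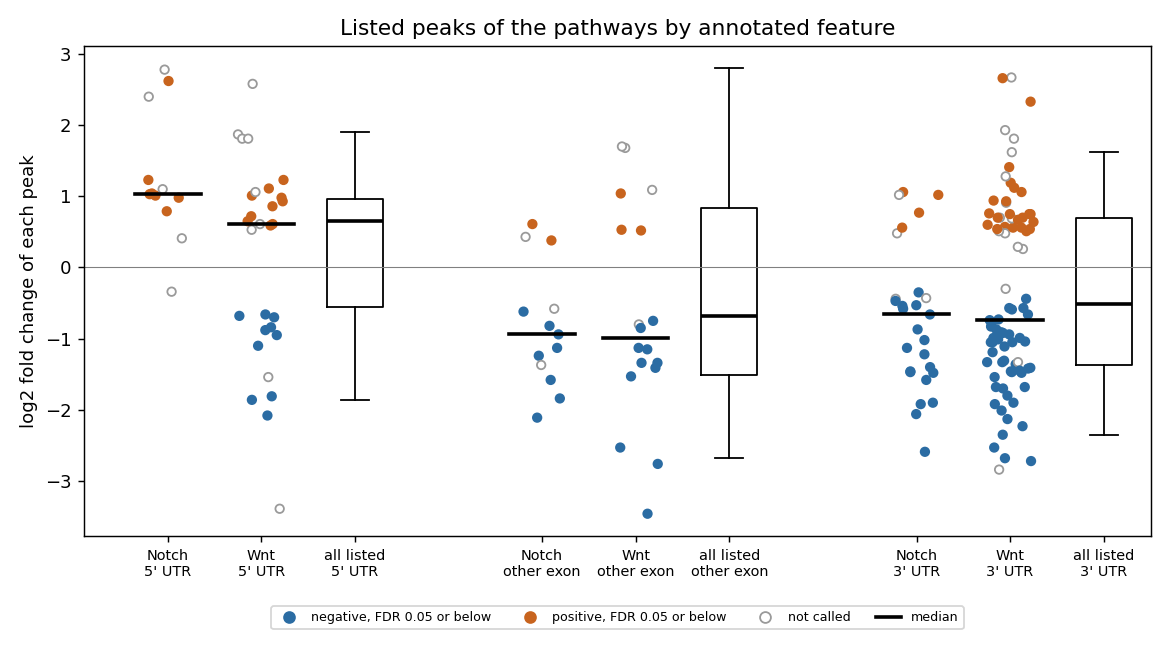
Log2 fold change of every listed peak (vertical axis) by annotated feature, with points for Notch and Wnt peaks (blue negative and called, orange positive and called, open not called), black bars for their medians, and boxes for all listed peaks (quartiles, whiskers at percentiles 5 and 95). Genes of both pathways appear under each. Called Notch peaks of the 5′ UTR lie between 0.79 and 2.62, while Wnt peaks there lie on either side of 0.

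Single genes showed the contrast between the UTRs too. In 13 members each UTR held a called peak. The leading peak was negative in the 3′ UTR and positive in the 5′ UTR in 6 of them (46.2%), among them Psen2, Ncstn, Rbpj, Ctnnb1 and Csnk1a1, and the opposite in Rac3. Both were negative in Axin2, Fzd7 and Vangl1 and both positive in Dvl1, Dvl3 and Prkaca. In the table as a whole the same pattern held in 521 of 1475 such genes (35.3%). By pathway it held in 4 of 6 Notch genes and 3 of 10 Wnt genes, with 1 gene counted in both. Subtracting the 5′ UTR value from that of the 3′ UTR gave a median of -1.28 for members and -0.45 for all such genes. Rac3 stood out with 2.33 (log10 FDR -4.59) in the 3′ UTR and -2.08 (log10 FDR -2.21) in the 5′ UTR in the authors' deposited table. In Psen2 and Ctnnb1 the UTR peaks are annotated to different types of transcript. The 3′ UTR peak of Psen2 lies on a processed transcript, and the 5′ UTR peak of Ctnnb1 on a retained intron.

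Where a gene held separate peaks annotated to the 3′ UTR, the one farther from the transcript start was more often the higher. This held in the table as a whole at a similar share. Such peaks need not lie in the same 3′ UTR. The gap between them was 72676 bp in Plcb1 and 13271 bp in Senp2, and the far peak of Snw1 lies beyond its span in RefSeq. Of 21 such members, 16 had a called peak at both ends of the row of peaks. The far peak was higher in 11 of them (68.8%) and lower in 5, with a median difference, far minus near, of 1.02. Signs were positive at the far end and negative at the near end in 6 members (37.5%). They were the reverse in Plcb1 (6.25%), whose near peak spans 34638 bp. Over all such genes of the table the shares were 36.3% and 6.42%. In the authors' deposited table Map3k7 had 1.19 in the far peak and -1.54 in the near one, and Ryk 0.93 and -0.74 in peaks of 180 bp each. Ppp3cb (0.64 far, -0.99 near), Csnk2a2 (0.57 far, -1.11 near), Daam1 (0.54 far, -0.83 near) and Snw1 (0.77 far, -0.54 near) had the same signs in the authors' deposited table. Fbxw11 kept 1 sign but differed in size, with -0.44 in the far and -2.72 in the near peak of the authors' deposited table. Over all 1074 genes of the table with such peaks the far peak was higher in 70.9%, with a median difference of 0.72, and the members were not tested against them. With peaks of at most 1000 bp, 2 members were left, and both had a higher far peak.

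**Figure D4:**
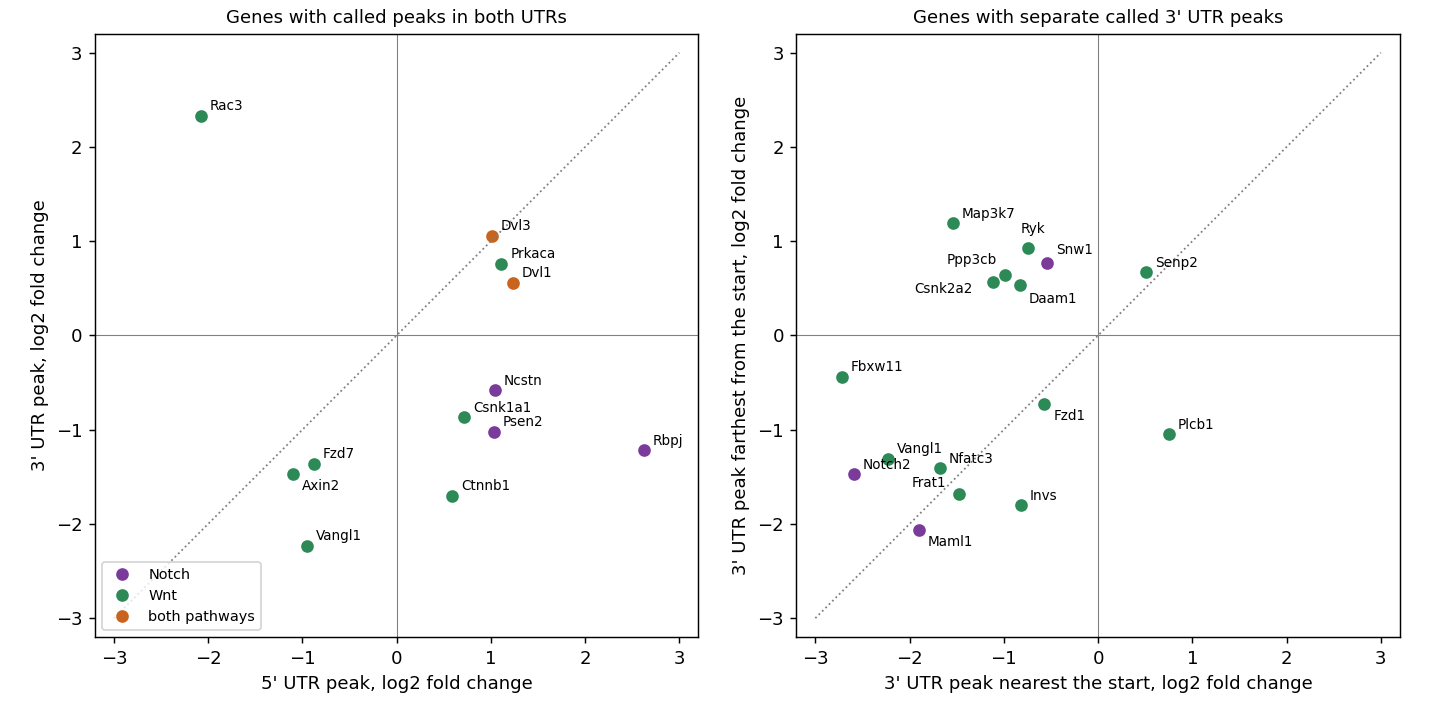
Left, log2 fold change of the leading called peak in the 3′ UTR (vertical) against that in the 5′ UTR (horizontal) for 12 of the 13 members with both. Right, the called 3′ UTR peak farthest from the transcript start (vertical) against the nearest (horizontal) for 16 members, with the dotted line marking equal values. On the left 5 genes lie at lower right, and on the right 6 lie at upper left.

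Transcript starts under called 5′ UTR peaks are shown because it is in this feature that the pathways differed most in sign. Bambi and Csnk1a1, which also had such a peak, were not searched. Of 18 members searched, 13 had a start in the RefSeq table of GRCm38.p6, the build named mm10, and in 8 it lay within 100 bases of the upstream edge of the peak. Each window runs 5′ to 3′ from 10 bases before the start through 20 transcribed bases, with capitals for the first transcribed base and for GGACT, the commonest form of the m6A consensus.
Ctnnb1 (chr9:120933390-120933419, plus strand): cctcgtcctcGcgcggcggaacgctccgcg
Dvl1 (chr4:155847392-155847421, plus strand): tgcgggcgacTagtgacgtcaccggccccg
Dvl3 (chr16:20516976-20517005, plus strand): ggaagagtcgCgatcgccagcggagcgccg
Ncstn (chr1:172082730-172082759, minus strand): acgatgctagCggaagcctagagaggccgc
Prkaca (chr8:83972968-83972997, plus strand): ggggcgtcacGgacagaGGACTtgggctga
Ruvbl1 (chr6:88465399-88465428, plus strand): ccccaatgacAtattgataggggcgggtcc
Rac3 (chr11:120721458-120721487, plus strand): gcactcggctGtcttcgcacccgacactcg
Siah1a (chr8:86745987-86746016, minus strand): ggcagggaagCcgggctgccgggcgggcgc
The first 6 belong to positive and the last 2 to negative 5′ UTR peaks. GGACT was found in the first 50 transcribed bases of 1 of the 8, Prkaca, on the transcript strand and in none on the other strand. Of all 32851 starts in the RefSeq table, 5.76% held it on the transcript strand and 4.87% on the other. The shorter core GGAC, which GGACT contains, was found in 2 of the 8, Prkaca and Ncstn, and in 18.9% of all starts. These letters describe the windows and do not mark a methylated base, and the windows cover little of the wider peaks.

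Genes of the KEGG terms that were not members, and regulators outside the terms, went both ways. Of the 21 genes left out, 10 were negative and called (47.6%), 8 positive and called (38.1%) and 3 not called, with a median of 0.45. Over all genes the shares were 47.6% and 33.6%, and the median was -0.52. The histone acetyltransferase genes Crebbp and Ep300, coactivators in both pathways, had -1.50 and -1.65 by the authors' deposited table, and Gsk3b, the kinase of the destruction complex, 0.71. Of 13 listed regulators outside the terms, 7 were negative and called (53.8%, against 47.6% over all genes), 4 positive and called and 2 not called. Among those that act on Notch, the authors' deposited table gives -1.14 for Pofut1 and -1.34 for Poglut1, which add sugars to the receptor, -1.12 for the ligase gene Fbxw7, and 0.38 for the protease gene Adam10 and 0.68 for the ligase gene Nedd4. Also positive in the authors' deposited table were Amer1 at 0.81 and Gsk3a at 0.77, whose proteins act in the destruction complex. For genes that act on LRP coreceptors, the authors' deposited table gives -1.77 for the chaperone Mesd and -1.59 for the inhibitor receptor Kremen1, and -2.13 for Lrp4, a relative of Lrp5 and Lrp6.

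Genes known to respond to Wnt in hepatocytes were negative in 8 of 9 (88.9%), all called. Over all genes 81.1% were called and 47.6% were negative and called. The lists in this paragraph were written with earlier results of these data known. Beside the members Axin2, Rnf43 and Nkd1 (the positive one, at 0.94), the authors' deposited table gives -2.38 for Tbx3, -1.62 for Slc1a2, -1.55 for Sp5, -1.94 for Cyp1a2, -1.29 for Cyp2e1 and -0.78 for Glul. Of 7 listed Notch-responsive and biliary genes, 5 were negative and called (71.4%), 1 positive and called and 1 not called. Beside Hes1, the authors' deposited table gives -1.57 for Sox9, -0.93 for Sox4, -0.41 for Spp1, 0.73 for Heyl and 0.58 for Hey1, the last not called. Sox9 and Spp1 are also the cholangiocyte markers with a listed peak, and the part of the number of biliary cells in these values was not tested. The medians of the lists were -1.55 and -0.93, against -0.52 over all genes.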

How the data were processed

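One table of the authors' comparison between the genotypes was used, with 17692 rows, 1 per peak. The submitters' processing notes name HISAT2 2.1.0 and the build mm10. How peaks were called and filtered and replicates combined is not given in the sources used here. The authors' deposited columns hold a log2 fold change and a log10 FDR per peak, as their headers name them. Both deposited columns were handled as a score, because 189 rows without a gene name, which were left out, hold these cells in another order, and because the log10 FDR has a floor far below its next lowest value, -321. The deposited p-value is rounded to 2 decimals and was not used for calls. The other deposited measures (start, end, width and distance to the transcript start) describe each peak. Width includes introns, with a member range of 60 to 34838 bp. Of the 176 member peaks 160 were annotated to protein-coding transcripts. The leading peaks of Rfng and Rnf43 are annotated to processed transcripts and that of Daam2 to a retained intron.

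Leading peaks, counts and medians were computed with Python 3.11.15, numpy 2.4.6 and pandas 2.3.3, and counting was tested on a simulated table, in which all 3 counts came back. Ties in FDR were broken by the larger change. The planned edgeR fit and the search for GGACT in peaks were not run, since no counts or genome sequence were used. All 96 members matched a RefSeq gene of GRCm38.p6, and all leading peaks overlapped its span. The strand in the comparison of 3′ UTR peaks came from RefSeq, or from the deposited distances for 3 members, and of overlapping peaks the one with the smallest FDR was kept. Any member could be named, but some genes counted in the totals are not reported here singly. Members and lists were chosen with earlier results of these data known.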

Additional observations from a re-analysis of the deposited data

How the results depend on the processing

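No paired analysis was possible because no values per library were used, and leaving out each replicate was not run for the same reason. Read depth is unknown. With an FDR threshold of 0.01, Notch kept counts of 18 negative and 3 positive genes, and Wnt had 41 and 14. With a minimum absolute log2 fold change of 1, positive Wnt genes numbered 8 in place of 19. Taking the largest called change as leading peak gave 7 positive Notch genes in place of 3. With peaks of at most 1000 bp, there were 12 negative and 5 positive Notch genes of 21 and 29 negative Wnt genes of 61, since fewer genes had such peaks and some, such as Snw1, then had a positive leading peak. All genes of the KEGG term gave 5 positive Notch genes, and leaving out genes of both pathways gave 1. With the mean over all peaks of a gene, the Notch median moved to -0.54 and the Wnt median to -0.44. The difference of medians by gene, Notch minus Wnt, kept its sign under these alternatives, between -0.40 and -0.09. Over single peaks it was positive, 0.15 in all and between 0.05 and 0.42 within each feature.

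Genes turned sign where they held peaks of both signs. By largest called change these included Ncstn (1.04), Psen2 (1.03), Rbpj (2.62), Ryk (0.93) and Snw1 (0.77). With peaks of at most 1000 bp they included Jag1 (1.02), then not called, Map3k7 (1.19), Ppp3cb (0.64) and Snw1 (0.77). With the mean over peaks they included Csnk2b (-0.09), Daam1 (0.21), Ncstn (0.42), Psen2 (0.005), Rbpj (0.83), Ryk (0.095) and Snw1 (0.19). After subtraction of 0.34, the median over the listed peaks, no leading peak of a called member turned sign. None could have, since the lowest positive called leading value was 0.51, in Senp2, and the calls were left as they were.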

Other observations

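Some members had large values without a call, and others small values with one. The 15 members with no called leading peak include some of the farthest values from 0 in the authors' deposited table, with Sfrp5 at -2.84, Ccn4 at 2.67 and Fosl1 at 2.58. Snw1, by contrast, passed at -0.54 (log10 FDR -20.2) and Ncstn at -0.58 (log10 FDR -31.7), both as given by the authors' deposited table.

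Close paralogs differed in sign or size. In the authors' deposited table Fbxw11 stood at -2.72 and Btrc at 0.93, Csnk2a2 at -1.11 and Csnk2a1 at 0.56, Daam1 at -0.83 and Daam2 at 1.04, Rfng at -0.87 and Mfng at 1.02, and Apc at -1.19 and Apc2 at 1.41. Other paralogs kept close in the authors' deposited table, such as Lrp6 and Lrp5 (-1.05 and -0.99), Znrf3 and Rnf43 (-2.76 and -2.53), and Dvl1 and Dvl3 (1.23 and 1.06). These pairs were chosen after their values were seen, and the values are those of leading peaks. Such peaks lay in unlike features in 3 of the pairs. They lay in the 3′ UTR in Fbxw11, Daam1 and Dvl3, but in the 5′ UTR in Btrc and Dvl1 and in an exon in Daam2. In the 3′ UTR Dvl1 stood at 0.56, and the peaks of Btrc there were not called (authors' deposited table). By the authors' deposited table Csnk2a2 also held a called 3′ UTR peak at 0.57, and Daam1 called peaks at 0.53 and 0.54. The calls of Btrc (log10 FDR -1.64) and Apc2 (log10 FDR -1.69) did not hold at an FDR of 0.01.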
